A study of Mus musculus with 3 samples.

Results

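The epidermal differentiation complex is a run of genes on mouse chromosome 3 that encode most of the proteins of the cornified envelope, the cross-linked shell of a terminally differentiated keratinocyte. Its members here are the rows of the count table that match a mouse gene named Lce, Sprr or S100a plus a digit, or 1 of a short set of named genes (Ivl, Lor, Flg2, Hrnr, Rptn, Crnn, Kprp, Tchhl1, Crct1, Smcp, Pglyrp3 and Pglyrp4). That gave 62 of the 24028 gene identifiers, with 21 late cornified envelope (Lce) genes, 14 small proline-rich (Sprr) genes, 15 S100a genes, 5 genes of the S100-fused type and 7 others. Flg, the filaggrin gene, was not analysed here. All 62 lie on chromosome 3 between 90511034 and 93564643 (GRCm38), a span of 3.05 Mb, so the positions bear out the name.

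The libraries were made from skin papillomas of C57BL/6 mice, benign epidermal tumours raised with the carcinogen DMBA and the promoter TPA, which all 3 genotypes received. Wild-type mice have galectin-7, a lectin of stratified epithelia, from their own gene. Lgals7-/- mice lack it, and Tg46 mice carry a transgene that expresses it from the keratin 14 promoter, which is active in basal keratinocytes. Each genotype is 1 library from 3 pooled tumours, so the differences below carry no replicate check and single tumours cannot be separated. Counts of a gene are given throughout in the order wild-type, Lgals7-/-, Tg46. Ages are not given in the labels. The comparisons ask how the papilloma transcriptome differs with the loss and the excess of galectin-7.

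Envelope assembly begins when transglutaminases link involucrin beneath the plasma membrane of a spinous or granular keratinocyte. Loricrin, the proline-rich SPRR bridges and the LCE proteins are then added, and the S100-fused proteins (filaggrin-like molecules with an S100 domain followed by long repeats) are linked to the envelope or packed around keratin. The S100A proteins are small calcium sensors, several of which are known as alarmins of inflamed epidermis. TPA is known to activate AP-1, a dimer of Fos and Jun proteins, and AP-1 sites in the promoters of involucrin and SPRR genes are textbook examples of control by differentiation and by TPA.

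The promoters of the members differ by family, and the windows of 6 members with large or opposed counts are given here from RefSeq (GRCm38.p6). Each runs from 250 bases before the annotated start to 50 bases after it, 5′ to 3′ on the gene's strand. Capitals mark TGANTCA, the AP-1 motif (the same on both strands), and TATAAA, read on the gene's strand only. The windows are chr3:93393449-93393748 (plus strand) for Rptn, chr3:92573686-92573985 (minus) for Ivl, chr3:92432332-92432631 (plus) for Sprr2k, chr3:92407741-92408040 (plus) for Sprr2i, chr3:92485832-92486131 (minus) for Sprr1a and chr3:92648258-92648557 (minus) for Lce1a1.
Rptn: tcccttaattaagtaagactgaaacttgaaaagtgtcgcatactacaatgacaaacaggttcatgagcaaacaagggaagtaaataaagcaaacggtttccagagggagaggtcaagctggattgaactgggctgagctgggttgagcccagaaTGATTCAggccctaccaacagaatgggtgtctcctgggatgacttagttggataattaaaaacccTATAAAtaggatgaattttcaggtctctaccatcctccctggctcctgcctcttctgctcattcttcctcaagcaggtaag
Ivl: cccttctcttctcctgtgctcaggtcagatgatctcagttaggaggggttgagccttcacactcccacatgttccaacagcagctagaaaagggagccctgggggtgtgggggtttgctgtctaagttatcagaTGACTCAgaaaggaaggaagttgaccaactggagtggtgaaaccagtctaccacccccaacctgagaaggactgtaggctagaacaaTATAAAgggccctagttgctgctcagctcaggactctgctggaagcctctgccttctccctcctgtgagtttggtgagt
Sprr2k: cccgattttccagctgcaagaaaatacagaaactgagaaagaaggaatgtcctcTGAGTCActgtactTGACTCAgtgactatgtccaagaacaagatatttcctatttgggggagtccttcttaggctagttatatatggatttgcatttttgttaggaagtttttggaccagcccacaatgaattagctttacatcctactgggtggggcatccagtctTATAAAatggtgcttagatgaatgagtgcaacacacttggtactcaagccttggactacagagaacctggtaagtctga
Sprr2i: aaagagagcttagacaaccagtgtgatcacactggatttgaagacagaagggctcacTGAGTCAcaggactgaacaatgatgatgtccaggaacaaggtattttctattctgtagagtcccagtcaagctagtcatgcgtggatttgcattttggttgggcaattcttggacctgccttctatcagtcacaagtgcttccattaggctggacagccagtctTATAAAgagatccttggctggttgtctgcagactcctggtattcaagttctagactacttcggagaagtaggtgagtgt
Sprr1a: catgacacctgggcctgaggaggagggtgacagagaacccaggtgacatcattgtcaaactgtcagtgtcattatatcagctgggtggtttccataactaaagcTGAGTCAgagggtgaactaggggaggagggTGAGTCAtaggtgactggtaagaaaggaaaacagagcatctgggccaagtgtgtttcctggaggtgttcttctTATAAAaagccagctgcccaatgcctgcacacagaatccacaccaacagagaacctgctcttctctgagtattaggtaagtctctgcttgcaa
Lce1a1: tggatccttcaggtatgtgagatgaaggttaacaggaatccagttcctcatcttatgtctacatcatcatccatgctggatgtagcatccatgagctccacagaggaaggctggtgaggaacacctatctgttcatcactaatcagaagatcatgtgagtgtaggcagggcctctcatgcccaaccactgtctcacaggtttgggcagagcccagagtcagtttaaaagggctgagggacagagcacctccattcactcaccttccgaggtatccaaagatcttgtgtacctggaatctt
The Rptn and Ivl windows hold 1 match to TGANTCA each, Sprr2k and Sprr1a 2 each, Sprr2i 1 and Lce1a1 0.

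RefSeq windows were matched for 52 of the 62 members. TGANTCA was found in 18 of these 52 (34.6%) and TATAAA in 22 (42.3%), against 8.97% and 9.77% of the 27025 genes with a window. By family the AP-1 motif was present in 9 of 12 Sprr genes, 4 of 5 S100-fused genes, 3 of 12 S100a genes, both Lor and Ivl of the 3 others, and 0 of 20 Lce genes. In 7 of the 8 Sprr2 genes with a window TATAAA began at base -29 and a TGANTCA lay between -198 and -193, and Sprr2k held another close to it. In Rptn and Crnn the AP-1 motif began at -96 in both. These matches describe the letters of the windows and say nothing of binding.

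**Figure D1:**
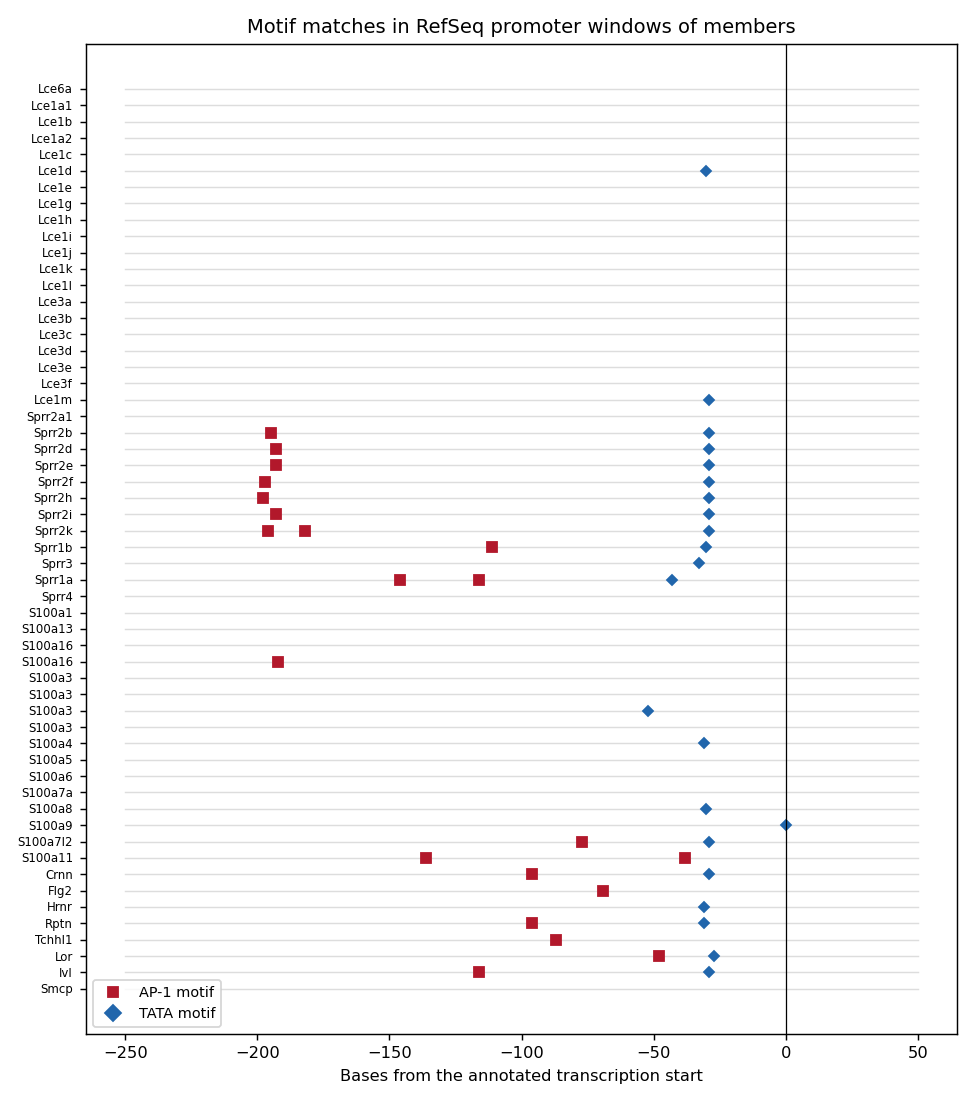
Positions of the AP-1 motif (squares) and the TATA motif (diamonds) in the promoter windows of members, 1 line per window, against bases from the annotated start. In 7 of the 8 Sprr2 windows both motifs stand at nearly the same positions, and the 20 Lce windows hold no AP-1 motif.

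The libraries are shallow. Their totals were 172011 (wild-type), 312600 (Lgals7-/-) and 354499 (Tg46). Counts were rescaled to CPM, counts per 1000000, with TMM factors, which align the bulk of genes between libraries. A count of 0 allows a level of up to 3 counts, which is 17.4 CPM in the wild-type library, 9.11 in the Lgals7-/- library and 8.95 in the Tg46 library. A fold against 0 counts is given as at least the ratio to those 3 counts. It leaves out the counting error of the other library, so the lower end of the interval, printed beside it, can be smaller. Lgals7 held 0, 2 and 4 counts, too few to check the genotypes. Gapdh, a glycolytic enzyme with exons opposite Iffo1, held 0, 5 and 4, Actb, the cytoskeletal actin, 3, 13 and 13, and B2m, part of class I major histocompatibility molecules, 0, 2 and 1. Genes used by nearly every cell were thus at or near 0. Whether the table holds all of the reads is not known from the sources used, so a 0 says only that the gene is listed at 0. Intervals, given in parentheses, are 95% exact intervals of counts and cover counting error only. In bulk tumours, fewer cells of a type and less RNA per cell cannot be told apart.

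Over all 62 members the counts came to 243, 774 and 1004, or 1406 CPM (1235 to 1595), 2351 (2189 to 2523) and 2996 (2813 to 3187). The sum was 1.67-fold higher in Lgals7-/- than in wild-type (1.45 to 1.94), 2.13-fold higher in Tg46 than in wild-type (1.85 to 2.46) and 1.27-fold higher in Tg46 than in Lgals7-/- (1.16 to 1.40). Both comparisons with wild-type use the same wild-type library. Rptn alone supplied 63, 314 and 533 of these counts. Without Rptn the ratios were 1.34 (1.13 to 1.60), 1.35 (1.13 to 1.61) and 1.01 (0.882 to 1.15), so the excess of Tg46 over Lgals7-/- in the sum rested on that 1 gene.

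A call of higher or lower needed a ratio, with 0.5 counts added to each library, of at least 2-fold and an interval excluding 1, among genes with 10 counts or more in at least 1 library. Of the 62 members 19 met that minimum and 43 did not. In Lgals7-/- over wild-type 4 of the 19 were called higher and 2 lower (21.1% and 10.5%), where 13.3% and 13.7% of all 12940 genes tested (26.9% together) were called higher and lower. In Tg46 over wild-type 8 were called higher and 2 lower (42.1% and 10.5%), where 13.7% and 13.9% of all genes (27.5% together) were. In Tg46 over Lgals7-/- 3 were called higher and 4 lower (15.8% and 21.1%), where 8.43% and 7.73% of all genes (16.2% together) were. The median log2 ratios of the 19 were 1.12, 1.08 and 0.16, beside 0.10, 0.11 and -0.03 over all genes.

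These shares lean on the minimum, because 12 of the 19 members had under 10 counts in wild-type and passed through another library. The comparison of Tg46 with Lgals7-/- leans on it too. There Sprr2i and Sprr2j-ps, called higher, passed through Tg46 alone, and Lce3c and Pglyrp4, called lower, through Lgals7-/- alone. Sprr1a, called lower against wild-type, passed through wild-type alone. The 43 members under the minimum, none above 9 counts, summed to 58, 117 and 116 counts. Scaled, their sum stood at 1.06 (0.767 to 1.48) of wild-type in Lgals7-/- and 1.03 (0.746 to 1.44) in Tg46. Tg46 over Lgals7-/- was 0.974 (0.747 to 1.27). That sum describes a set which the counts themselves chose, since a member that is high in a deeper library leaves it, and members that went either way are added in it. With no minimum, Lce1h, Lce1j, Lce3a, S100a7l2 and Sprr2a1 were called lower in Lgals7-/- against wild-type. Against wild-type in Tg46, Lce3a and Sprr2a1 were then called lower and S100a14 higher, and Sprr3 was lower in Tg46 against Lgals7-/-. Members at 0 numbered 29, 9 and 8, and 29, 13 and 16 with libraries thinned to the smallest total. S100a10, S100a2 and Sprr4 were at 0 in every library. With the libraries thinned, the calls of Kprp, Crnn, Lce1e, Lce3c, Pglyrp3 and Pglyrp4 given below were lost and Ivl in Lgals7-/- against wild-type was gained, and with 5 counts added those against wild-type of Kprp, Lce1a1 in Lgals7-/-, Lce1e, Pglyrp3, Sprr2j-ps and Sprr2k in Tg46.

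**Figure D2:**
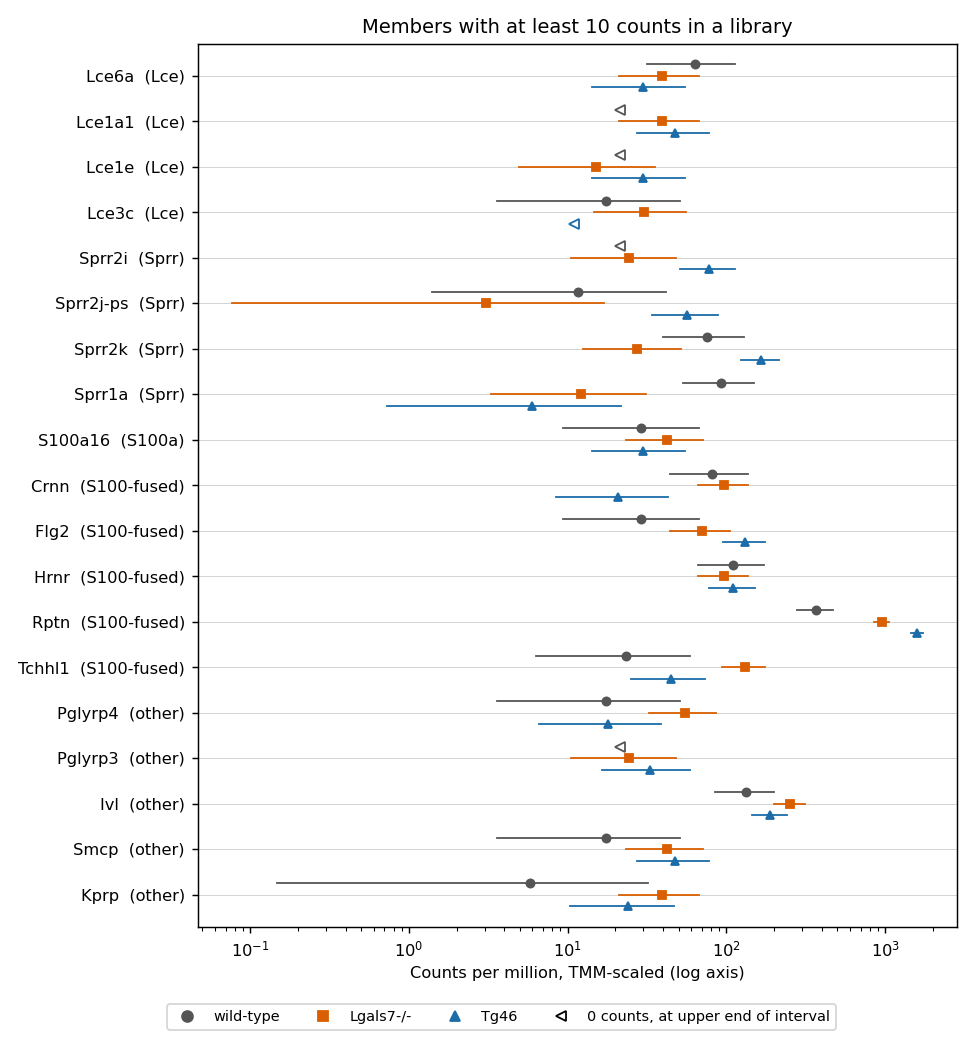
CPM (log axis) of the 19 members with 10 counts or more in a library, 1 symbol per library with its 95% exact interval for counting error, and an open arrowhead where a library held 0 counts. Rptn stands above the other members in every library, and its 3 intervals do not overlap.

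With Rptn among them, the S100-fused genes held the largest share of the counts and the largest increase over wild-type. Their sum was 105, 444 and 636 counts (43.2%, 57.4% and 63.4% of all member counts). It was 2.22-fold (1.79 to 2.77) and 3.12-fold (2.54 to 3.88) higher in Lgals7-/- and Tg46 than in wild-type, and 1.41-fold (1.24 to 1.59) higher in Tg46 than in Lgals7-/-. The 5 genes did not share 1 pattern. Without Rptn the sum was 42, 130 and 103 counts, 1.62-fold (1.14 to 2.36) and 1.26-fold (0.875 to 1.86) the wild-type level, and Tg46 stood at 0.778 of Lgals7-/- (0.595 to 1.02). Those ratios to wild-type were then below the 1.91 (1.33 to 2.80) and 1.48 (1.02 to 2.19) of the 7 others, with overlapping intervals.

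Rptn (chromosome 3, 93393699 to 93399442, plus strand) encodes repetin, an S100-fused envelope protein with glutamine-rich repeats. It held 63, 314 and 533 counts, or 365, 954 and 1590 CPM. Both other libraries lay above wild-type, and Tg46 above Lgals7-/-. The ratio to wild-type was 2.60 (1.99 to 3.49) in Lgals7-/- and 4.33 (3.36 to 5.76) in Tg46, both called higher. Tg46 over Lgals7-/- was 1.67 (1.45 to 1.92), an interval that excludes 1 at a ratio under the 2-fold threshold. No exon lies opposite it, and 94.5% of the positions of its transcript begin a 50-base word found once in that transcript.

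Flg2, filaggrin-2, held 5, 23 and 44 counts, lowest in the wild-type library and highest in the Tg46 library. Tg46 was 4.17-fold higher than wild-type (1.80 to 14.7), a call. Lgals7-/- over wild-type was 2.24 (0.898 to 8.13), with no call, and Tg46 over Lgals7-/- was 1.86 (1.11 to 3.26). Hrnr, hornerin, held 19, 32 and 37 counts and had no call, at 0.875 (0.486 to 1.65) and 0.991 (0.563 to 1.85) of wild-type in Lgals7-/- and Tg46. Only 34.7% and 30.9% of the 50-base words of the Flg2 and Hrnr transcripts occur once in the transcript, and the sources used here do not say how reads from repeats were counted.

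Crnn and Tchhl1, unlike Rptn, were lower in Tg46 than in Lgals7-/-. Crnn, cornulin, a protein of squamous epithelia, held 14, 32 and 7 counts, so that Tg46 was the lowest library. It was called lower in Tg46 than in wild-type (3.75-fold, 1.46 to 11.4) and than in Lgals7-/- (4.41-fold, 2.02 to 12.5), while Lgals7-/- over wild-type was 1.18 (0.622 to 2.43). Tchhl1, a trichohyalin-like gene, held 4, 43 and 15 counts, with Lgals7-/- the highest. It was called higher in Lgals7-/- against wild-type (5.07-fold, 2.05 to 21.6) and lower in Tg46 than in Lgals7-/- (2.86-fold, 1.59 to 5.66). Tg46 over wild-type was 1.78 (0.616 to 8.0), with no call.

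The sum of hair follicle markers, like Tchhl1, was highest in Lgals7-/-, but not every marker shared this. Krt31, Krt33b, Krt34 and Krt73, with 6 counts or fewer in every library, had their largest CPM in wild-type. The remaining hair genes had theirs in Lgals7-/-. The 14 hair genes measured, none at 0, came to 1395, 4438 and 880.2 CPM. Of the 9 tested, 4 were called higher and 0 lower in Lgals7-/- against wild-type, and 5 lower and 0 higher when Tg46 was set against Lgals7-/- (44.4% and 55.6%, beside 13.3% and 7.73% of all genes). In Tg46 against wild-type 2 of the 9, Krt32 and Krt35, were called lower and 0 higher. That is 22.2% lower, beside 13.9% of all genes, a gap too small to read in 9 genes. The median log2 ratio of the 9 was -0.57, where the log2 ratio of Tchhl1 was 0.83, with an interval of its ratio (0.616 to 8.0) that holds 1. Most of the sum is Tchh, trichohyalin of the inner root sheath, whose gene lies between Rptn and Tchhl1 (93442330 to 93449077) and which held 160, 1202 and 209 counts. The part of hair follicle content in the Tchhl1 values was not tested.

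**Figure D3:**
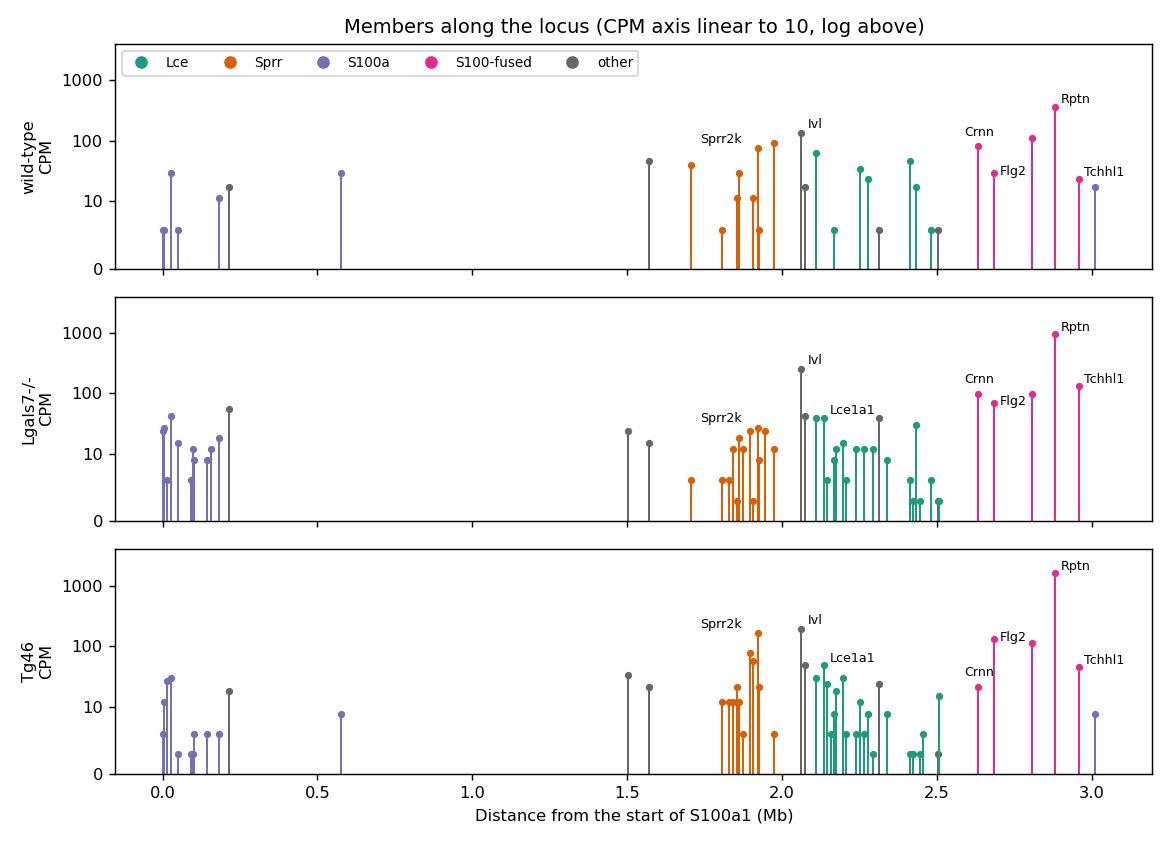
CPM of each member (linear to 10, log above) against the distance of its start from that of S100a1 in Mb, 1 panel per library, coloured by family. The S100-fused genes at the far end carry the highest stem in every library, and the Sprr2k stem is lowest in Lgals7-/-.

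Ivl, Lor and the proline-rich gene Kprp are envelope precursors outside the large families. Ivl (92570902 to 92573735, minus strand), involucrin, held 23, 83 and 63 counts. Lgals7-/- over wild-type was 1.87 (1.18 to 3.15), above 1 but under 2-fold, Tg46 over wild-type was 1.39 (0.864 to 2.39) and Tg46 over Lgals7-/- 0.747 (0.529 to 1.05). No comparison called Ivl, though its ratio in Lgals7-/- passed 2-fold with TMM factors from all listed genes (2.06) and with thinned libraries (2.01). Lor, loricrin, which is normally among the most abundant envelope proteins, held 8, 5 and 7 counts and was under the minimum. Its ratio to wild-type was 0.340 (0.0844 to 1.14) in Lgals7-/- and 0.455 (0.139 to 1.42) in Tg46. Kprp, keratinocyte proline-rich protein, held 1, 13 and 8, and was called higher in Lgals7-/- against wild-type on an interval that only just excluded 1 (4.72-fold, lower end 1.02). Crct1 held 1 count in each library.

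The Sprr family differed between Lgals7-/- and Tg46. Its 14 genes summed to 47, 54 and 134 counts. Lgals7-/- stood at 0.603 of wild-type (0.400 to 0.911), Tg46 at 1.47 (1.05 to 2.09), and Tg46 was 2.44-fold above Lgals7-/- (1.77 to 3.41). The first of these intervals reached 1.01 with TMM factors from all listed genes, and the second reached down to 0.985 with total counts. The ratio of Tg46 to Lgals7-/- excluded 1 under all 4 scalings, and was 1.72 without Sprr2k.

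Most of the Tg46 counts lay in 3 neighbours at the distal end of the Sprr2 cluster. Sprr2k held 13, 9 and 55 counts, was called lower in Lgals7-/- against wild-type (2.71-fold, 1.09 to 7.29), and higher in Tg46, both against wild-type (2.12-fold, 1.18 to 4.35) and against Lgals7-/- (5.74-fold, 2.94 to 13.8). With TMM factors from all genes the first call was lost, and with total counts the second. Sprr2i held 0, 8 and 26 counts, at least 4.47-fold above wild-type in Tg46 (interval from 3.38) and 3.06-fold (1.40 to 8.16) above Lgals7-/-, both called. Sprr2j-ps, listed as a transcribed pseudogene between them, held 2, 1 and 19 counts, 4.02-fold (1.18 to 43.4) above wild-type and 12.8-fold (2.97 to 775) above Lgals7-/- in Tg46, both called. Tg46 was thus the highest library for all 3.

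Together Sprr2i, Sprr2j-ps and Sprr2k held 15, 18 and 100 counts, and the other 7 Sprr2 genes 15, 21 and 25, a split made after the values were seen. Scaled, the first 3 stood at 0.630 (0.300 to 1.34) of wild-type in Lgals7-/- and 3.44 (1.99 to 6.37) in Tg46. The other 7 stood at 0.735 (0.361 to 1.53) and 0.859 (0.436 to 1.75). Sprr2k shares no 50-base word with another gene, 99.8% of those of Sprr2j-ps are its own, and 87.5% of those of Sprr2i are. Sprr2a1, by contrast, shares 92.5% with Sprr2a2, and its 7, 2 and 0 counts are uncertain.

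Sprr1a ran the other way. This gene (92483952 to 92485895, minus strand), an injury- and TPA-responsive bridge protein, held 16, 4 and 2 counts. It was called lower than wild-type in Lgals7-/- (6.99-fold, 2.46 to 31.3) and in Tg46 (12.8-fold, 3.65 to 139), and Tg46 over Lgals7-/- was 0.546 (0.0444 to 3.43). Sprr1a and Sprr2k both carry a pair of AP-1 motifs in the windows given above. Against wild-type both were called lower in Lgals7-/-, while in Tg46 Sprr1a was called lower and Sprr2k higher. The part of the motifs in these counts was not tested. Sprr1b held 1, 3 and 7 counts. Sprr3, a gene of internal squamous epithelia, held 0, 8 and 0.

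**Figure D4:**
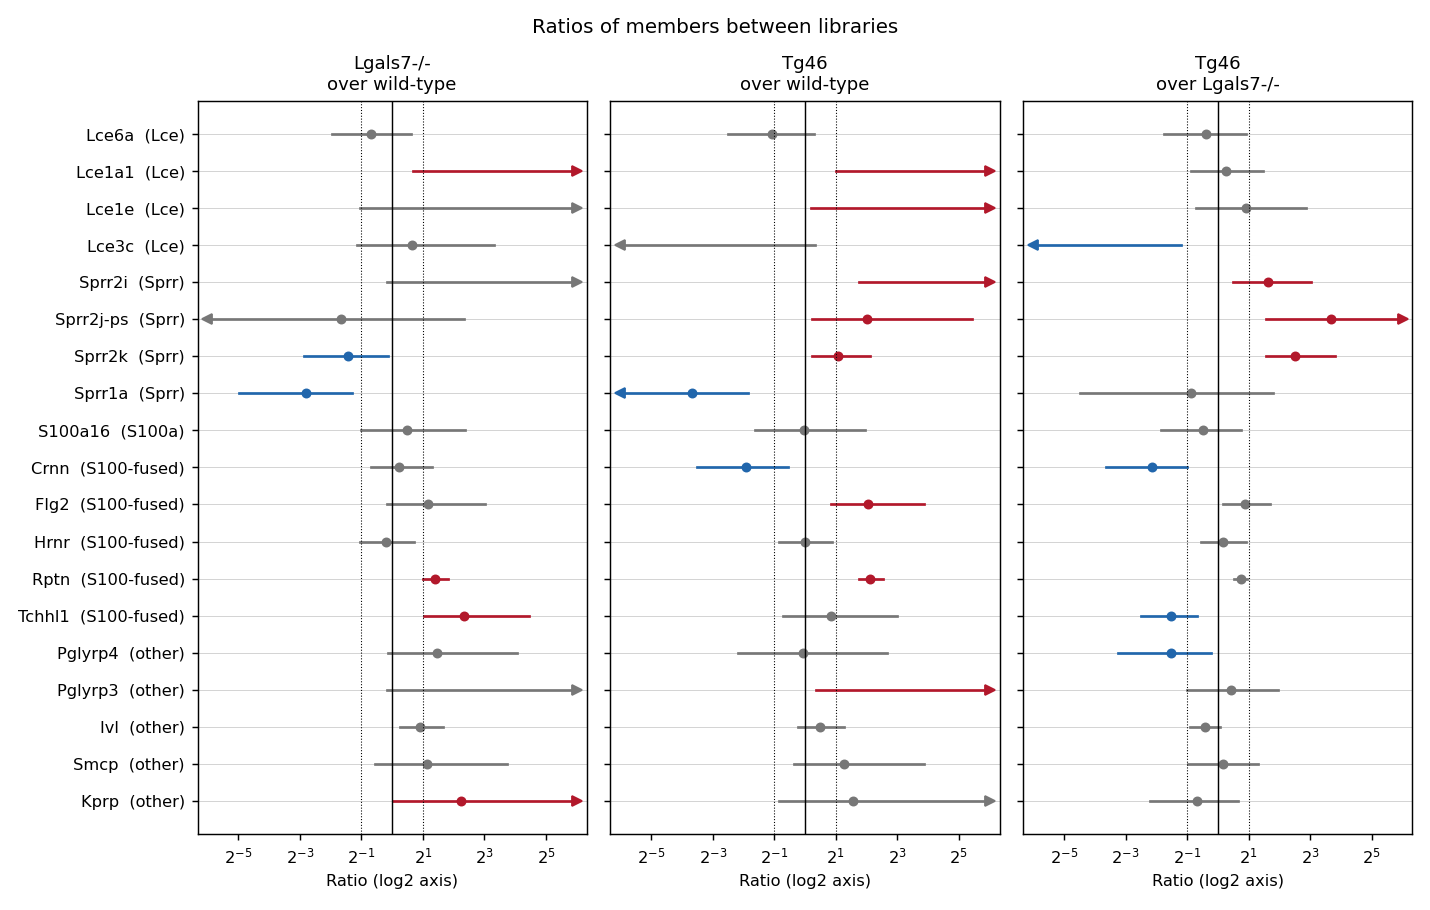
Ratio of TMM-scaled counts (log2 axis) for the 19 members in the 3 comparisons, with 95% exact intervals for counting error; red and blue mark calls of higher and lower, grey no call, and arrowheads intervals that run past the axis (no point is drawn where a library held 0 counts). The 3 Sprr2 genes shown are red in Tg46 over Lgals7-/-, and Sprr1a is blue in both comparisons with wild-type.

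The Lce family as a whole had no ratio whose interval excluded 1. Its 21 genes summed to 34, 74 and 82 counts, with ratios of 1.14 (0.751 to 1.77) and 1.24 (0.824 to 1.91) to wild-type and 1.09 (0.785 to 1.51) in Tg46 over Lgals7-/-, which turned to 0.977 with total counts. In wild-type 14 of the 21 were at 0, against 4 in Lgals7-/- and 2 in Tg46. Genes at 0 also numbered 5796, 2531 and 2241 over all 24028 listed, and the wild-type library has the lowest total. With libraries thinned to that total, 29, 13 and 16 of all members were at 0, a tally not given for the Lce genes apart. The part of depth in the Lce zeros was not tested. The wild-type counts sat in few genes, with 11 at Lce6a, 8 at Lce3a, 6 at Lce1h and 4 at Lce1j, the last 2 of which held 0 in Lgals7-/-.

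Of the 4 Lce genes with enough counts, Lce1a1 held 0, 13 and 16 counts, at least 2.27-fold higher in Lgals7-/- (interval from 1.60) and at least 2.75-fold in Tg46 (interval from 1.99), both against wild-type and both called. Neither call held when the interval had to lie wholly beyond 2-fold. Lce1e held 0, 5 and 10, called higher in Tg46 (at least 1.72-fold, interval from 1.16, where the call itself rests on the ratio with 0.5 added). Lce6a held 11, 13 and 10 counts and had no call. Lce3c held 3, 10 and 0, called lower in Tg46 than in Lgals7-/- (at least 3.39-fold, interval from 2.28). Split by name after the values were seen, the 14 Lce1 genes held 11, 45 and 67 counts and the 6 Lce3 genes 12, 16 and 5. Scaled, the Lce1 sum stood at 2.15 (1.09 to 4.60) of wild-type in Lgals7-/- and 3.14 (1.65 to 6.59) in Tg46. The Lce3 sum stood at 0.700 (0.311 to 1.62) and 0.215 (0.0593 to 0.655).

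Lce genes resemble each other, so reads can be shared among them. Lce1a1 shares 9.79% of its 50-base words with Lce1a2, and 80.1% are its own. Lce3c shares 34.2% with Lce3f, and Lce3d, Lce3e and Lce3f have between 50.7% and 56.3% of their own. Values of single Lce3 genes are therefore uncertain, since the sources used here do not say how shared reads were counted.

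The S100a genes were near the limit of these libraries. Their 15 genes summed to 18, 60 and 40 counts, with Lgals7-/- 1.75-fold above wild-type (1.02 to 3.15) and Tg46 at 0.655 of Lgals7-/- (0.428 to 0.993). Tg46 over wild-type was 1.15 (0.642 to 2.12). S100a16 was the single gene above the minimum, with 5, 14 and 10 counts and no call. S100a8 and S100a9, the subunits of calprotectin, held 0, 4 and 0 and 2, 6 and 2 counts, too few for a call. S100a14 held 0, 2 and 9, S100a4 0, 2 and 1, and S100a6 0, 3 and 2.

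Neutrophils also make calprotectin. The 11 neutrophil markers measured summed to 301, 389 and 355 CPM, with Csf3r at 0 in wild-type and Cxcr2 at 0 in Tg46, and the 9 macrophage markers to 243, 319 and 233 CPM, with C1qc at 0 in wild-type and Lgals7-/-. The part of these cells in the S100a values was not tested.

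The peptidoglycan recognition proteins Pglyrp3 and Pglyrp4 are antibacterial proteins of epithelia. Pglyrp3 held 0, 8 and 11 counts, with a call of higher in Tg46 against wild-type (at least 1.89-fold, interval from 1.29). Pglyrp4 held 3, 18 and 6 counts, highest in Lgals7-/-, and was called lower in Tg46 than in Lgals7-/- (2.90-fold, 1.16 to 9.40). Lgals7-/- against wild-type was 2.77 (0.919 to 16.7), which became a call with TMM factors from all listed genes (3.06). Smcp, known as a sperm mitochondrial protein, held 3, 14 and 16 counts, and its ratios to wild-type of 2.18 (0.684 to 13.3) and 2.43 (0.787 to 14.7) gave no call.

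**Figure D5:**
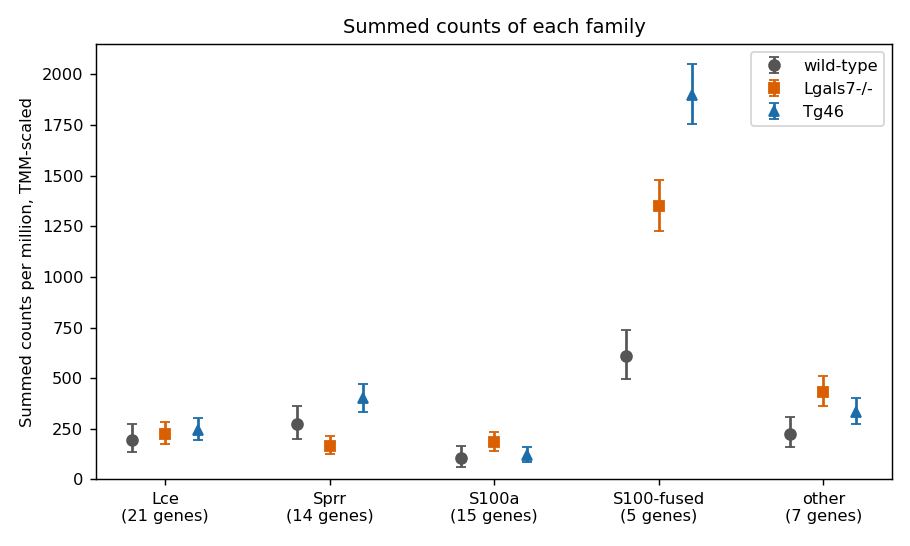
Summed CPM of each family in each library, with 95% exact intervals for counting error. The S100-fused sum rises from wild-type to Lgals7-/- and Tg46, the Sprr sum is lowest in Lgals7-/-, and the intervals of the Lce sum overlap in all 3 libraries.

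Levels of different members were compared as CPM per kb of annotated exon. In wild-type the order began with Sprr2k (118), Sprr1a (115) and Rptn (87.9) CPM per kb, followed by Lce3a (84.3) and Lce6a (80.1). In Lgals7-/- it began with Rptn (230.1) and Ivl (131), with Tchhl1 next at 63.2. In Tg46 Rptn (384) and Sprr2k (258) led, then Sprr2i (126) and Ivl (97.8). The leading wild-type genes rest on 8 to 63 counts each and their intervals overlap, so their order among themselves is not resolved. Flg2 and Hrnr, with the longest exons, lay at 6.31 and 9.87 CPM per kb in Tg46.

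These levels were set beside those of 1492 olfactory, vomeronasal, taste and trace-amine receptor genes, which averaged 3.25, 2.56 and 2.37 CPM per kb. The members as a whole stood at 14.6, 24.4 and 31.1 CPM per kb, or 4.49, 9.56 and 13.2 times that level. By family in wild-type the S100a genes were the closest to it, at 1.79 times. The lower end of the interval lay above the receptor level for 18, 33 and 35 members. Fewer members can clear it at the lower depth of the wild-type library. The receptor sum itself stood at 0.786 and 0.728 of wild-type in Lgals7-/- and Tg46, which raises the multiples there. Neither the multiples nor these numbers are therefore a measure of change in the members. The receptor set was chosen after these data had been seen. Flg2 in wild-type, at 1.39 CPM per kb, had an interval that ended just below the receptor level. The intervals of the other members, those at 0 included, held that level.

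Between the first and the last member lie 6 other genes of the table, of which 2 reached 10 counts. Prr9, a proline-rich gene of the locus, held 5, 22 and 35 counts, with a call of higher in Tg46 against wild-type (3.33-fold, 1.41 to 11.8). The other is Tchh, given above. Only S100a3 among the members has an exon across from it on the opposite strand, against 24.4% of annotated genes.

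The partners of the complex outside the locus were counted the same way. Of 17 envelope partners tested, 4 were called higher and 2 lower in Lgals7-/- over wild-type, 7 higher and 1 lower in Tg46 over wild-type, and 2 higher with 1 lower for Tg46 against Lgals7-/- (medians 0.97, 1.28 and 0.11 on the log2 scale). These are 23.5% and 11.8%, 41.2% and 5.88%, and 11.8% and 5.88%, beside 13.3% and 13.7%, 13.7% and 13.9%, and 8.43% and 7.73% of all genes, so the lower calls were no more frequent than among all genes. As with the members, shares and medians against wild-type lean on the minimum of 10 counts. Partners with fewer in wild-type, Csta1, Sbsn and Tgm1 below among them, were tested only because another library reached it. The same holds for the other gene lists. Csta1, a cystatin incorporated in the envelope, held 8, 62 and 150 counts, and was called higher in every comparison (3.86-fold, 9.13-fold and 2.37-fold). Csta1 belongs to the stefin A family, and reads it may share with close copies are uncertain. Sbsn, suprabasin, held 5, 36 and 61, called higher in both comparisons with wild-type. Tgm1, the transglutaminase that cross-links envelopes, held 2, 17 and 25, also called higher in both, with exons opposite those of Gm49067. Against these, Pkp1, a desmosomal plakophilin, held 31, 19 and 21 and was called lower in both, and Krtdap, with 8, 2 and 10, was called lower in Lgals7-/- against wild-type. Dsg1a, a desmoglein, held 8, 31 and 5 and was called lower in Tg46 than in Lgals7-/-.

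Of 10 filaggrin-processing genes tested, 3 were called higher in Lgals7-/- over wild-type and 2 in Tg46 over wild-type, with 0 lower in either, and no gene was called in Tg46 over Lgals7-/- (medians 1.24, 1.24 and -0.27). Of all genes 13.3% and 13.7% were called higher in the first pair of comparisons, so the 2 of 10 in Tg46 lie within 1 gene of that share. Spink5, the kallikrein inhibitor LEKTI, held 14, 85 and 135 counts, called higher in both comparisons with wild-type. Capn1 held 3, 15 and 28, called in Tg46, and lies across from Gm10814. Ctsh, a cathepsin, held 0, 11 and 5, called higher in Lgals7-/- against wild-type (at least 1.92-fold, interval from 1.32).

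Of 22 regulators of the locus tested, 3 were called higher and 0 lower in Lgals7-/- over wild-type, 4 higher and 2 lower in Tg46 over wild-type, and 3 higher with 1 lower for Tg46 against Lgals7-/- (medians 0.01, 0.41 and 0.29). The shares called higher, 13.6%, 18.2% and 13.6%, stood near the 13.3%, 13.7% and 8.43% of all genes. Those called lower, 0%, 9.09% and 4.55%, were under the 13.7%, 13.9% and 7.73% of all genes. Klf4, a transcription factor of barrier formation, held 3, 7 and 32 counts, 4.79-fold above wild-type (1.72 to 28.1) and 4.26-fold above Lgals7-/- (1.95 to 12.1) in Tg46. Cebpb, with exons opposite Tmem189, held 0, 8 and 23, at least 3.95-fold above wild-type in Tg46 (interval from 2.96). Gata3, with exons opposite Gm13256, held 2, 25 and 27 and was called higher in both comparisons with wild-type. Nfe2l2, the oxidative stress factor, held 1, 14 and 10 and was called higher in Lgals7-/-. Maf was called lower in Tg46 in both comparisons, with 11, 17 and 6 counts and an overlap with Gm15655.

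Of 5 AP-1 subunits tested, none was called against wild-type in either comparison, and Jun, with 4, 12 and 1 counts and an overlap with Junos, was called lower in Tg46 than in Lgals7-/- (ratio 0.118, 0.00191 to 0.553). That is 1 of the 5 (20%), beside 7.73% of all genes, and it rests on 12 and 1 counts. Fosl1, with exons opposite Ccdc85b, held 4, 12 and 13 counts and Fosl2 12, 26 and 28, at ratios to wild-type between 1.11 and 1.55. Fos and Junb, at 6, 5 and 3 and 0, 5 and 4 counts, were under the minimum. Of 7 S100 partners tested, 3 were called higher in Lgals7-/- over wild-type and the same 3, Ager, Anxa2 and Cd36, lower in Tg46 over Lgals7-/- (42.9% in each case, beside 13.3% and 7.73% of all genes). Anxa2, the partner of S100a10, held 1, 18 and 7 counts, with exons opposite Gm16144. Anxa1, with 4, 3 and 14, was called higher in Tg46 than in Lgals7-/- (4.07-fold, 1.28 to 24.9). It was 1 of the 7 (14.3%), beside 8.43% of all genes.

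The sums of keratinocyte markers, like that of the members, were lowest in the wild-type library, but not every marker shared this. The 4 spinous keratins summed to 382, 784 and 883 CPM, the 6 basal markers to 503, 723 and 823 CPM, and the 4 stress keratins to 145, 386 and 635 CPM, with no gene of these lists at 0. Krt1, the keratin of spinous cells, was 3.24-fold (2.07 to 5.51) and 3.75-fold (2.42 to 6.36) above wild-type in Lgals7-/- and Tg46. Krt6a, a keratin of activated epidermis with exons opposite Gm44342 and Gm49428, held 6, 35 and 95 counts, in the same order of libraries as Rptn. Of the 4 spinous keratins 1 was called higher in Lgals7-/- and 2 in Tg46 against wild-type (25% and 50%). Of the 4 stress keratins 3 and 4 were (75% and 100%), with 0 lower in either list. Over all genes 13.3% and 13.7% were called higher in these comparisons, and 13.7% and 13.9% lower. In lists of 4 or 6 genes 1 call does not stand apart from those shares. The stress keratins held 9 counts or fewer in wild-type and passed the minimum through the other libraries. Of the 6 basal markers 2 were called higher and 1 lower in Lgals7-/- (33.3% and 16.7%), and 3 higher and 0 lower in Tg46 (50% and 0%). The lower one was Itga6, an integrin of basal cells, with 30, 24 and 37 counts, at 0.422 (0.235 to 0.743) of wild-type in Lgals7-/- and 0.634 (0.382 to 1.07) in Tg46. Krt2, a late spinous keratin, held 16, 14 and 19 counts, at 0.461 and 0.609 of wild-type with no call. The fibroblast sum was 365, 401 and 436 CPM and the endothelial sum 278, 295 and 269 CPM. The part of keratinocyte content in the sums of members was not tested.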

How the data were processed

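RNA from papillomas was pooled from 3 tumours per genotype, purified with TRIzol and RNeasy columns and made into libraries with an Illumina kit, per the labels' protocols. The authors deposited raw read counts, 1 column per library, under Entrez identifiers. The build is mm10, per the submitters' processing notes. The aligner, counting tool, use of strand and handling of shared reads are not stated in the sources used. A RefSeq symbol was found for 23968 of 24028 identifiers. Positions, exon lengths, opposite-strand exons and 50-base words come from GENCODE (GRCm38).

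TMM factors (1.00, 1.05 and 0.945, wild-type first, edgeR 4.0.16, R 4.3.3) were taken over genes with 10 counts in a library. Ratio intervals are exact Clopper-Pearson intervals of the pair of counts, and level intervals are exact Poisson intervals. With 1 library per genotype no test can be fitted and no p-value is given: a call compares libraries, not conditions. Folds against 0 use a floor of 3 counts per library. Members with 10 counts are all named; of other lists, up to 3 called genes with the largest ratio, and further genes after their values were seen. The members and lists were chosen with earlier results of these data known. The settings varied were scaling by total counts or DESeq2 1.42.0 size factors, no filter, 30 counts over the libraries, 5 counts added, intervals beyond 2-fold, members with no opposite exon, leaving out the top member and thinned libraries. Scripts ran in Python 3.11.15 with scipy 1.17.1.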

Additional observations from a re-analysis of the deposited data

How the results depend on the processing

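No paired analysis was possible because there is 1 library per genotype, and none could be left out. DESeq2 size factors moved no call of a member. Pairs below give calls of higher and lower, first for Lgals7-/- against wild-type, next for Tg46 against wild-type, last for Tg46 against Lgals7-/-. Over all genes, a minimum of 30 counts over the libraries gave 994 and 1073, 1140 and 1110, and 680 and 523, and an interval wholly beyond 2-fold gave 235 and 449, 266 and 449, and 147 and 86. Adding 5 counts gave 584 and 658 higher against wild-type. Thinning, an alternative chosen after seeing the data, gave 1045 and 1052 higher against wild-type, and 634 higher and 431 lower between the others. For members, the minimum of 30 gave 2 and 1, 4 and 1, and 2 lower in the last comparison, and intervals beyond 2-fold gave 1 and 1, 2 and 1, and 2 lower in the last. Adding 5 counts gave 2 and 4 higher against wild-type. With no filter 7 were lower in Lgals7-/- and 4 in Tg46 against wild-type. TMM over all listed genes, also chosen after seeing the data, left 1 lower and gave 6 higher in Lgals7-/- against wild-type (Ivl and Pglyrp4 gained, Sprr2k lost), and thinning left 1 lower in Tg46 against wild-type and 1 against Lgals7-/-. Fewer genes or counts enter with the stricter minimum and with thinning; for the other settings the cause was not tested. Leaving out Rptn gave sums of 1.34, 1.35 and 1.01, and S100-fused sums of 1.62 and 1.26 against wild-type and a reversed 0.778 in Tg46 over Lgals7-/-. The sum over members in that comparison was 1.14 with total counts, and the Sprr sum 1.72 without Sprr2k. Total counts shifted the median of all genes by -0.16 on the log2 scale in Tg46 over Lgals7-/-, and TMM over all listed genes by 0.14 and 0.15 against wild-type. Of 210 main values under the alternatives 167 stayed within 1.5 times (counts) or their counting interval (sums), 42 moved and 1 reversed. Ratios of single members at 0 in wild-type depend on the counts added: with 0.5 and 5 added, Pglyrp3 in Tg46 was 11.9 and 1.65, and Sprr2i 8.92 and 1.37 in Lgals7-/- and 27.3 and 3.20 in Tg46. Depth limits the single values of the 43 members with at most 9 counts in any library.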
